A study of Oryctolagus cuniculus with 12 samples.

Results

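The 22 transcripts of WDR26, RPS24, TTC17, ACIN1, and ATXN7 were followed in rabbit conjunctiva after trabeculectomy, out of 38710 transcripts and 20566 genes in the deposited tables. These 5 genes were chosen by measured values of these same libraries, because transcripts of 1 gene were called in opposite directions after surgery, so their changes, and the calls of the comparison that chose them, are given as a description and not as tests. All transcripts listed under each parent gene were taken, which gave 3 for WDR26, 7 for RPS24, 5 for TTC17, 3 for ACIN1, and 4 for ATXN7. Of the 22, 20 passed the filter on low counts. The other two, RPS24 XM_017348689.1 and ATXN7 XM_008260881.2, held at most 6 and 4.35 counts in any library, and no fold is given for them.

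Trabeculectomy is a glaucoma operation in which aqueous humor is led through a scleral flap to a bleb under the conjunctiva. Conjunctiva of female Japanese White rabbits was sequenced in 12 libraries of 4 groups with 3 libraries each. The control group came from left eyes, which were not operated on. TL3h, TL3d, and TL14d came from right eyes and hold conjunctiva with the bleb, taken 3 hours, 3 days, or 14 days postoperatively. In every operated eye mitomycin C, which crosslinks DNA, was applied under the flaps, and the methods describe a betamethasone injection and an erythromycin and colistin ointment at the end of surgery, so surgery and these drugs cannot be told apart. No genetic change is named, the labels give no age, and which control eye belongs to which operated rabbit, or at which time it was taken, is not stated. P-values measure the spread between these libraries, which the labels do not tie to separate animals.

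A gene can give several transcripts by alternative start sites, alternative splicing, or alternative ends, and the share of each in the gene's reads can change while the gene's total stays where it was. WDR26 is a subunit of the CTLH ubiquitin ligase, which marks proteins for degradation. RPS24 is a protein of the small ribosomal subunit, and its messenger RNA is known for tissue-dependent splicing of very short exons near its 3′ end. TTC17 is a tetratricopeptide repeat protein linked to actin assembly and cilia. ACIN1, or acinus, is a nuclear protein that binds spliced messenger RNA as part of the ASAP complex and is cleaved in apoptosis. ATXN7 anchors the deubiquitinase module of SAGA, a chromatin complex that aids transcription.

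On the rabbit genome OryCun2.0, WDR26 (gene ID 100354883) lies on the plus strand of chromosome 16 from 48894281 to 48949970. RPS24 (gene ID 100354973) lies on the minus strand of chromosome 18 from 9567050 to 9572691. TTC17 (gene ID 100346174) lies on the plus strand of chromosome 1 from 183005460 to 183153116. ACIN1 (gene ID 100338262) lies on the minus strand of chromosome 17 from 43281944 to 43319055, and ATXN7 (gene ID 100338651) on the plus strand of chromosome 9 from 30957251 to 31074224. Transcripts are named by their RefSeq model, and a later RefSeq annotation, on assembly mOryCun1.1, still listed 14 of the 22 models. It listed all 3 models of WDR26 and of ACIN1, 4 of 5 of TTC17, 3 of 7 of RPS24, and 1 of 4 of ATXN7. Among the models it no longer listed were RPS24 XM_002718398.2, TTC17 XM_017346078.1, and ATXN7 XM_017343930.1 and XM_017343931.1, whose values are described below.

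Within 2 of the genes the main transcripts share their ends and differ only inside. WDR26 XM_008268354.2 (6353 bases) and XM_017347765.1 (6401 bases) have the same span and differ by 48 bases, while XM_017347764.1 has the same span with 3074 bases. RPS24 XM_002718398.2 (568 bases), XM_008269913.2 (565 bases), and XM_008269910.2 (544 bases) also have 1 span in common and the latter forms are 3 and 24 bases shorter than the first. In the other genes the starts differ. TTC17 XM_017346078.1 starts 30750 bp downstream of the first start of its gene, ACIN1 XM_017348198.1 starts 802 bp and XM_017348199.1 24411 bp downstream, and ATXN7 XM_002713288.3 starts 14642 bp and XM_017343931.1 78729 bp downstream. Which exons differ was not analysed here.

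**Figure D1:**
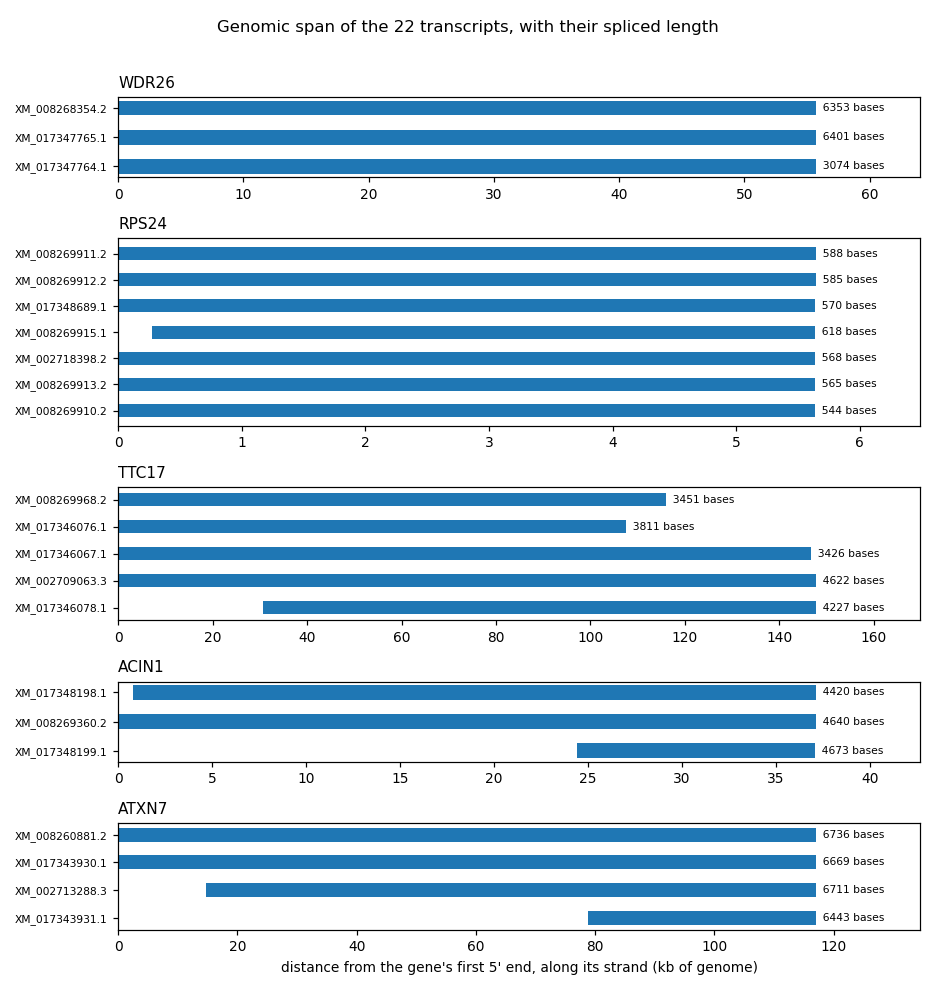
Genomic span of the 22 transcripts, drawn from the first 5′ end of each gene along its strand in kb, with the spliced length in bases at the right of each bar; introns are not drawn. The WDR26 bars are alike, whereas TTC17 XM_017346078.1 and ATXN7 XM_017343931.1 start 30750 and 78729 bp inside their genes.

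A transcript was called when the adjusted p-value of edgeR's quasi-likelihood test over 26082 transcripts was at most 0.05. At 3 hours, 63 of the 5119 genes with at least 2 tested transcripts had 1 transcript called higher and 1 called lower than the control group, which is 1.23%, and WDR26, TTC17, ACIN1, and ATXN7 were 4 of them. At 3 days this held for 4 genes, 0.0781%, of which WDR26, RPS24, and TTC17 were 3. The 5 genes were therefore 5 of the 64 genes with opposite calls at either time. In all, 11 of the 20 tested transcripts were called at 3 hours (6 higher, 5 lower), where 28.3% of all transcripts were, and 6 (3 higher, 3 lower) at 3 days, where 5.13% were. These counts belong to the choice of the genes, and nothing is read from them. At 14 days 0 of the 20 were called by edgeR and 1 by DESeq2, and 0 of all 26082 transcripts were past the threshold by edgeR, 2046 with an unadjusted p-value under 0.05. As a description of where the threshold lay, and not as a test, the edgeR adjusted p-value by which members counted as called was, for the member just inside it, 0.0437 (ATXN7 XM_002713288.3) at 3 hours and 0.0491 (TTC17 XM_017346076.1) at 3 days, and just outside it was 0.0599 (TTC17 XM_002709063.3) and 0.0553 (ACIN1 XM_008269360.2).

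The calls depended on single libraries, on scaling, and on the other settings tried. When 1 of the 12 libraries was left out of the fit in turn, 4 to 12 members were called at 3 hours and 0 to 4 of the 5 genes kept opposite calls. No gene kept them without TL3h replicate 2, WDR26 was the 1 gene that did without control replicate 1 or control replicate 2, and TTC17 was the 1 gene that did without TL3h replicate 3. At 3 days, 0 to 7 members were called, and 0 without control replicate 1 or 2 or without TL3d replicate 1 or 2. With library size alone 4 members were called higher and 8 lower at 3 hours, and of all called transcripts 25.8% were higher, against 50.03% with TMM. Opposite calls at 3 hours were then lost for ACIN1 and at 3 days for TTC17. Without the filter ACIN1 and ATXN7 lost them at 3 hours and TTC17 at 3 days, and the DESeq2 test lost ATXN7 at 3 hours and added ACIN1 at 3 days. With a replicate block ACIN1 lost them at 3 hours, and at 3 days WDR26 and TTC17 did, which left RPS24. The levels per library, given below, do not rest on this threshold.

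Levels are CPM, counts scaled to TMM-adjusted library sizes (rounded counts, so that under 0.5 count is 0 CPM), and a share is the transcript's part of the summed counts of its gene in the same library, in percent. Shares do not depend on the scaling between libraries, while a CPM at 3 hours does. The total count per library in the transcript table ranged from 28082031 to 39978508, and TMM factors lay between 0.784 and 0.806 for TL3h and between 1.02 and 1.12 for the remaining libraries. With library size alone the median log2 fold change of all transcripts at 3 hours was -0.47. A library with a count of 0 allows up to 3 counts, or 0.0694 to 0.118 CPM, which covers counting error only, and folds against groups at that level are lower bounds. In these bulk libraries, fewer cells of a type and less RNA per cell cannot be told apart.

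WDR26 gave the clearest loss of 1 transcript. XM_017347765.1, the form with 48 more bases, held 1128, 827, and 730 counts in control replicates 1, 2, and 3 (26.1, 20.2, and 17.9 CPM). In the TL3h libraries it held 3.24, 0.00472, and 0.713 counts, and in each of the TL3d libraries it was at 0 CPM. No library of either group came near the controls. It was at least 195-fold lower at 3 hours and at least 263-fold lower at 3 days. Its share was 12.8% ± 3.35 (mean ± SD, n = 3) in the control group and 0.0128% ± 0.0164 (mean ± SD, n = 3) at 3 hours.

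At 14 days the 3 libraries did not form 1 group for this transcript. TL14d replicates 1 and 3 held 411 and 578 counts, shares of 9.15% and 11%, whereas replicate 2 held 0.0461 counts. The mean of 10.6 ± 9.50 CPM (mean ± SD, n = 3) thus describes none of the 3 libraries. Against the control group the log2 fold change was -1.01 ± 1.41 (standard error).

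The short WDR26 transcript XM_017347764.1 went the other way. It was at 16.96, 15.2, and 20 CPM in the controls. In TL3h it reached 62.8, 64.6, and 74.3 CPM, in TL3d 45.5, 45.96, and 35.3 CPM, and in TL14d 18.4, 34.4, and 22.3 CPM. All TL3h and TL3d libraries were above all controls, and the TL14d libraries overlapped them in CPM. The log2 fold change was 1.95 ± 0.23 at 3 hours, 1.28 ± 0.23 at 3 days, and 0.53 ± 0.23 at 14 days (standard errors). Its share was 10.2% ± 0.492 in controls, 20% ± 2.83 in TL3h, 20.7% ± 2.59 in TL3d, and 14.8% ± 3.21 in TL14d (mean ± SD, n = 3), and the lowest TL14d share, 12.4%, lay above the highest control share, 10.5%. Counted per length, from the authors' FPKM, the share of this shorter form was 19.4% in the control group and 34.6% at 3 hours.

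The main WDR26 transcript, XM_008268354.2, averaged 131 ± 18.2 CPM in controls, 272 ± 39.4 in TL3h, 162 ± 2.79 in TL3d, and 131 ± 18.7 in TL14d (mean ± SD, n = 3). TL3h lay above TL3d and TL3d above TL14d without overlap, and TL14d overlapped the control group. Its share changed little, from 77.0% ± 3.35 in the control group to 80.0% ± 2.81 at 3 hours (mean ± SD, n = 3), and overlapped between the groups at each time.

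The forms of 6353 and 6401 bases in sum held 89.8% ± 0.492 of the WDR26 counts in controls, 80.0% ± 2.83 in TL3h, 79.3% ± 2.59 in TL3d, and 85.3% ± 3.21 in TL14d (mean ± SD, n = 3). In TL14d replicate 2, where the longer form was at 0 CPM, the sum was 152 CPM, inside the control range of 143 to 170 CPM. How reads common to both forms were divided is not given in the sources used here, and its part in these values was not tested. Over all 16401 tested transcripts of genes with at least 2 of them, 1301 (7.93%, in 941 genes) held under 1 count in 1 library and at least 100 in another library of the same group. WDR26 XM_017347765.1 and ATXN7 XM_002713288.3 were the 2 members among them.

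**Figure D2:**
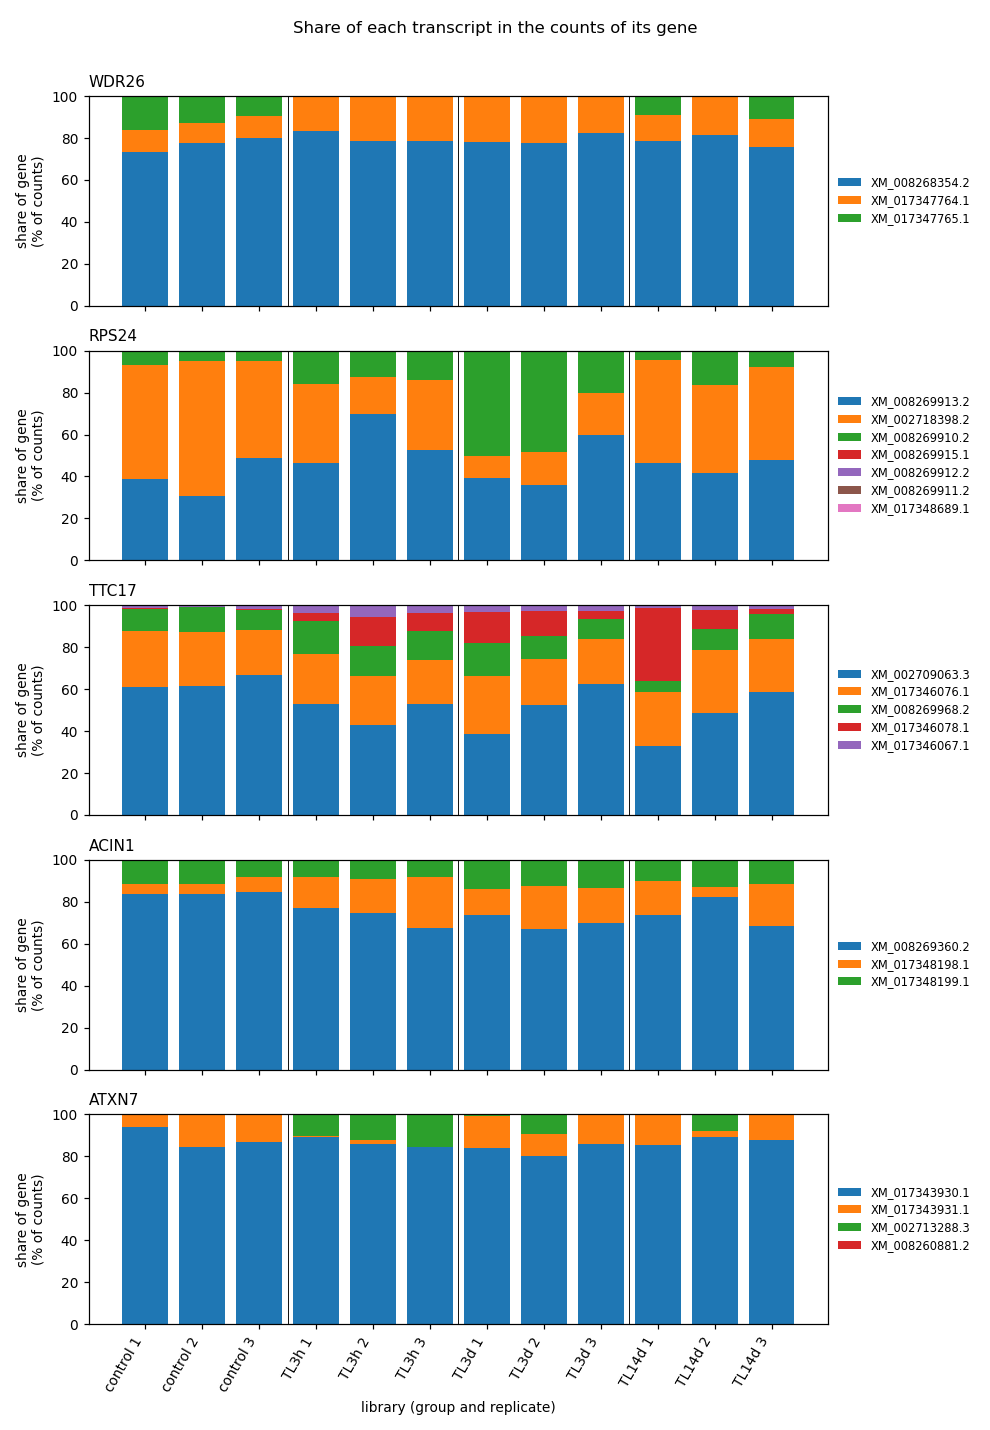
Share of each transcript in the summed counts of its gene, in percent, for each of the 12 libraries; colors mark the transcripts of 1 gene and vertical lines divide the groups. WDR26 XM_017347765.1 is visible in the control libraries and in TL14d replicates 1 and 3, and RPS24 XM_008269910.2 reaches 48.2% and 49.9% in 2 of the TL3d libraries.

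RPS24 showed the largest shift of shares of the 5 genes at 3 hours and 3 days. XM_002718398.2, the form of 568 bases, held 54.1%, 64.3%, and 46.3% of the gene's counts in the control libraries and 37.4%, 17.3%, and 33.3% in the TL3h libraries. In the TL3d libraries its share was 10.4%, 15.4%, and 20.2%, and in the TL14d libraries 49.2%, 42.2%, and 44.3%. All TL3h and TL3d shares were below all control shares, and the TL14d shares overlapped them. Its level averaged 429 ± 96.1 CPM in controls, 238 ± 88.7 in TL3h, 114 ± 43.4 in TL3d, and 313 ± 111 in TL14d (mean ± SD, n = 3). The highest TL3h level, 325 CPM, overlapped the lowest control, 321 CPM. In log2 fold change this was -0.85 ± 0.38 at 3 hours, -1.91 ± 0.39 at 3 days, and -0.46 ± 0.38 at 14 days (standard errors).

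The shorter RPS24 form XM_008269910.2, with 24 bases fewer, rose over the same time. Its share was 6.47%, 4.46%, and 4.56% in the control libraries, 15.5%, 12.2%, and 13.8% at 3 hours, 49.9%, 48.2%, and 19.2% at 3 days, and 4.25%, 15.8%, and 7.54% at 14 days. Every TL3h and TL3d library was above every control library. The level averaged 40.6 ± 12.6 CPM in controls, 113 ± 19.3 in TL3h, 282 ± 113 in TL3d, and 55.8 ± 22.7 in TL14d (mean ± SD, n = 3). In CPM, TL3d was above TL3h and TL3h above TL14d without overlap. TL3h and TL14d overlapped in share and in the authors' FPKM, where TL3h began at 176.4 and TL14d reached 195.8. The log2 fold change was 1.47 ± 0.38 at 3 hours and 2.80 ± 0.40 at 3 days (standard errors), and 3.10 at 3 days without TL3d replicate 3.

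The third main form, XM_008269913.2, averaged 304 ± 54.5 CPM in controls, 460 ± 120 in TL3h, 337 ± 121 in TL3d, and 310 ± 97.2 in TL14d (mean ± SD, n = 3). It was not called at any time. Its TL3h libraries lay above all controls in CPM but overlapped them in the authors' FPKM. Its share overlapped the controls at all 3 times. This form and the form of 568 bases differ by 3 bases, and together they held 94.4% ± 1.10 of the RPS24 counts in controls, 85.7% ± 1.70 in TL3h, 60.4% ± 17.0 in TL3d, and 90.4% ± 5.96 in TL14d (mean ± SD, n = 3). The 4 remaining forms each held at most 0.479% of the counts in any library. Among them XM_008269915.1, which starts 271 bp downstream, was at 2.18 ± 0.673 CPM in controls and 3.58 ± 0.938 in TL3h (mean ± SD, n = 3), with overlap.

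TL3d replicate 3 stood apart from the other TL3d libraries in RPS24. Its share of the form of 544 bases was 19.2%, against 48.2% and 49.9%. The same library also had another makeup of cell type markers. The summed level of 6 fibroblast markers (COL1A1, COL1A2, COL3A1, DCN, LUM, PDGFRA) was 64685 CPM in TL3d replicate 3 and 1328 and 11713 CPM in replicates 1 and 2. Epithelial markers, 8 of 12 of which were in the table, summed to 7834 CPM in it and to 18889 and 17910 CPM in the others. Their part in the RPS24 shares was not tested.

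RPS24 counts are the least certain of the 5 genes. The sum of the transcript counts was 3.05 to 3.88 times the count that the gene table gives for RPS24 in the same library, and 1.03 to 1.14 times for the other genes. Over 14524 genes with at least 120 counts in all, the median of this ratio was 1, and it was 2 or more in 108 genes (0.744%). Ribosomal protein genes have many near-identical processed copies in mammalian genomes, how reads with several placements were given out is not given in the sources used here, and the part of either in this ratio was not tested. The gene table put RPS24 at 249 ± 27.8 CPM in controls, 244 ± 30.2 in TL3h, 210 ± 16.9 in TL3d, and 216 ± 73.9 in TL14d (mean ± SD, n = 3), with overlap at each time. Its FPKM was 246.5 to 307.4 in TL3h, below the 331.8 to 439.9 of the controls.

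**Figure D3:**
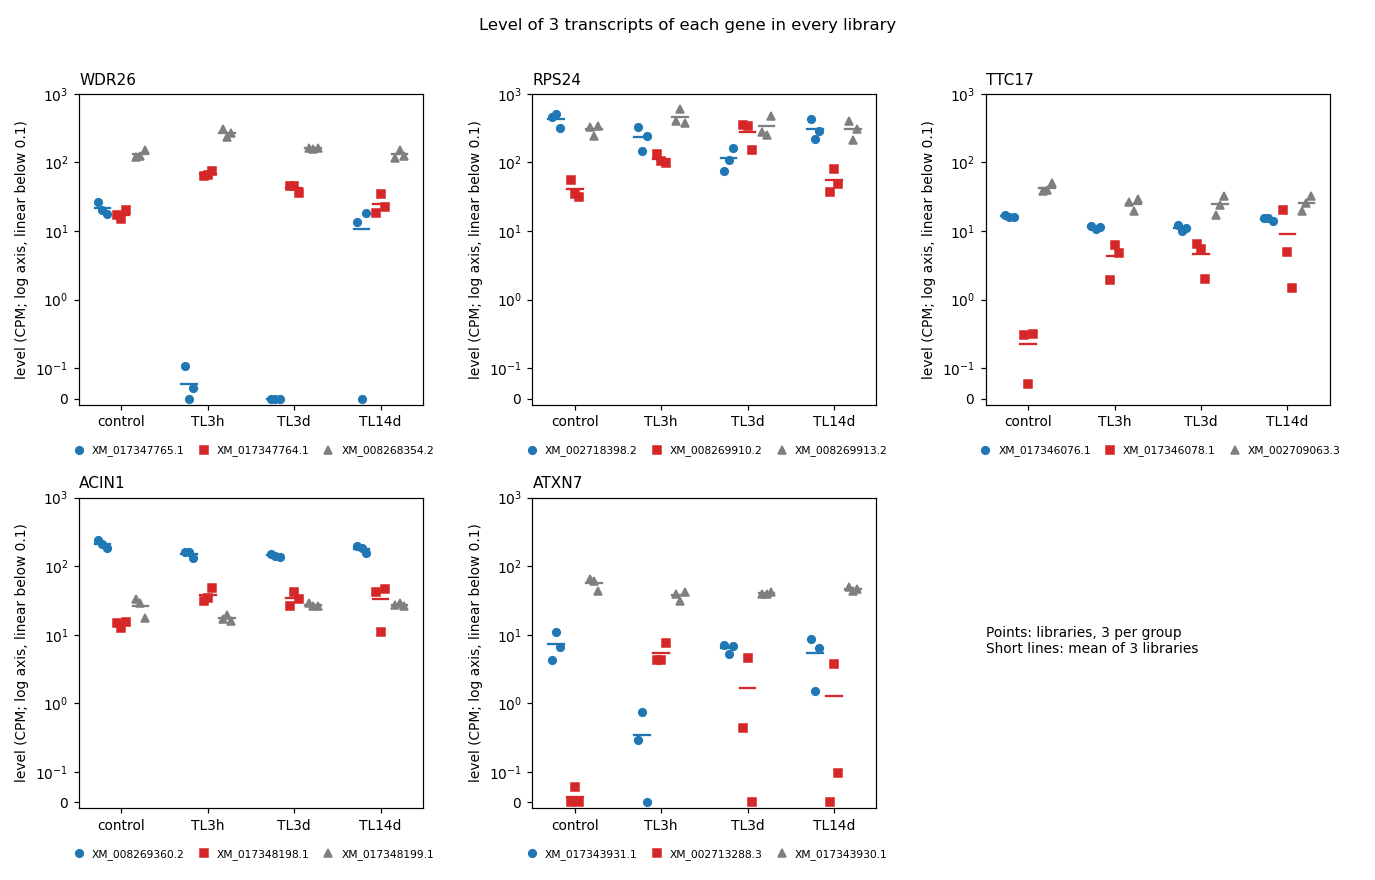
Level in CPM of 3 transcripts of each gene in every library, on a log axis that is linear below 0.1 CPM; points are libraries and short lines are means of 3 libraries. RPS24 XM_008269910.2 reaches 152 to 355 CPM in the TL3d libraries against 31.6 to 55.0 CPM in the controls, and ATXN7 XM_002713288.3 and XM_017343931.1 change places at 3 hours.

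TTC17 had more of a transcript with an internal start. XM_017346078.1 was at 0.301, 0.0488, and 0.318 CPM in the controls. In TL3h it reached 1.92, 6.32, and 4.80 CPM, in TL3d 6.45, 5.46, and 1.97 CPM, and in TL14d 20.4, 4.86, and 1.46 CPM. All 9 libraries of operated eyes were above all 3 controls, and the 3 operated groups overlapped each other. The log2 fold change was 4.26 ± 1.07 at 3 hours, 4.35 ± 1.07 at 3 days, and 5.30 ± 1.11 at 14 days (standard errors), of which the last was not called. Its share was 0.318% ± 0.212 in controls, 8.81% ± 5.03 in TL3h, 10.1% ± 5.67 in TL3d, and 15.6% ± 17.0 in TL14d (mean ± SD, n = 3). The 14 day mean rested on TL14d replicate 1 with 34.8%, against 9.325% and 2.602% in replicates 2 and 3.

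The longest TTC17 transcript, XM_002709063.3 with 4622 bases, averaged 42.9 ± 6.497 CPM in controls, 25.1 ± 5.05 in TL3h, 24.6 ± 7.89 in TL3d, and 25.9 ± 6.79 in TL14d (mean ± SD, n = 3). It was not called, but its libraries lay below all controls at each of the 3 times, with log2 fold changes of -0.78 ± 0.28, -0.80 ± 0.28, and -0.73 ± 0.27 (standard errors). XM_017346076.1, whose 3′ end lies 40079 bp short of the last end of the gene, was called lower at 3 hours and at 3 days. It averaged 16.4 ± 0.544 CPM in controls, 11.4 ± 0.697 in TL3h, 11.1 ± 1.02 in TL3d, and 15.02 ± 0.764 in TL14d (mean ± SD, n = 3). In CPM the order of its groups was control, TL14d, TL3h, and TL3d, and only the last 2 overlapped. This order depended on the scaling. In the authors' FPKM, TL3h (1.94 to 2.25) lay below TL3d (2.64 to 3.165), and TL14d overlapped the controls. Its share, in contrast, was 24.4% ± 2.90 in the control group and 22.7% ± 1.60 at 3 hours (mean ± SD, n = 3) and overlapped at all 3 times.

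The other two TTC17 forms were not called. XM_008269968.2 was at 7.24 ± 0.438 CPM in controls and 7.38 ± 0.682 in TL3h, and XM_017346067.1 at 0.931 ± 0.406 CPM and 2.12 ± 0.373 CPM (mean ± SD, n = 3). The shares of these forms at 3 hours, 14.7% and 4.26% on average, lay above all control shares, whose means were 10.7% and 1.35%. The gene total of TTC17 averaged 61.5 ± 5.74 CPM in controls, 47.5 ± 4.68 in TL3h, 43.6 ± 3.41 in TL3d, and 51.4 ± 2.77 in TL14d (mean ± SD, n = 3), below all controls at each time.

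ACIN1 shifted between transcripts with neighbouring starts. XM_017348198.1, which starts 802 bp downstream of XM_008269360.2 and is 220 bases shorter, was at 14.6, 12.6, and 15.3 CPM in the control libraries, 31.2, 34.4, and 47.5 CPM at 3 hours, 26.0, 42.4, and 33.5 CPM at 3 days, and 42.6, 10.9, and 46.1 CPM at 14 days. Every TL3h and TL3d library was above the controls, and TL14d replicate 2 was below them. The log2 fold change was 1.41 ± 0.44 at 3 hours, 1.26 ± 0.44 at 3 days, and 1.23 ± 0.44 at 14 days (standard errors), and the transcript was called at 3 hours only. Its share was 5.73% ± 1.24 in controls, 18.6% ± 5.22 in TL3h, 16.6% ± 3.85 in TL3d, and 13.7% ± 7.85 in TL14d (mean ± SD, n = 3). The 14 day shares were 16.1%, 4.89%, and 20%.

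The main ACIN1 transcript XM_008269360.2 held 84.0% ± 0.662 of the counts in controls, 72.9% ± 4.94 in TL3h, 70.1% ± 3.25 in TL3d, and 74.8% ± 6.96 in TL14d (mean ± SD, n = 3). Its shares in the 9 libraries of operated eyes, 67.1% to 82.2%, were all below the control shares of 83.5% to 84.8%. The level averaged 212 ± 30.2 CPM in controls, 150 ± 16.8 in TL3h, 143 ± 7.5 in TL3d, and 179 ± 19.1 in TL14d (mean ± SD, n = 3). The log2 fold changes were -0.50 ± 0.15, -0.56 ± 0.15, and -0.24 ± 0.15 (standard errors), and only the one at 3 hours was called. XM_017348199.1, which starts 24411 bp downstream, was at 26.3 ± 8.13, 17.5 ± 2.04, 27.2 ± 1.26, and 27.5 ± 1.13 CPM in the control, TL3h, TL3d, and TL14d groups (mean ± SD, n = 3). Its 3 hour levels overlapped the controls. The gene total, from the gene table, was 232 ± 34.6 CPM in controls and 197 ± 8.91 in TL3h (mean ± SD, n = 3). These totals overlapped in CPM, while TL3h lay below all controls in the authors' FPKM.

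In the estimated counts of ATXN7, 1 minor transcript was higher and another lower at 3 hours. How reads common to the ATXN7 forms were divided is not given in the sources used here, and its part was not tested. XM_002713288.3, which starts 14642 bp downstream of the first start, held 0.000974, 2.09, and 0.00195 counts in the control libraries and 120, 108, and 220 counts in the TL3h libraries. It was thus at least 74.7-fold higher at 3 hours. XM_017343931.1, which starts 78729 bp downstream, held 185, 456, and 274 counts in the control libraries and 7.63, 18.8, and 0.00306 counts in the TL3h libraries, a log2 fold change of -4.42 ± 1.08 (standard error), which was -5.65 without TL3h replicate 2 and -3.83 without TL3h replicate 3. In share of the gene, the first went from 0.0240% ± 0.0415 to 12.3% ± 2.55 and the other from 11.7% ± 4.92 to 0.891% ± 1.04 (mean ± SD, n = 3). For both transcripts the 3 hour libraries did not overlap the controls.

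At 3 days XM_017343931.1 was back within the control range, at 7, 5.25, and 6.80 CPM against 4.28, 11.1, and 6.70 CPM in the controls. XM_002713288.3 was uneven at 3 days, with 0.432, 4.51, and 0 CPM, and at 14 days, with 0, 3.73, and 0.0951 CPM. In TL14d replicate 2, where XM_002713288.3 held 7.57% of the counts, XM_017343931.1 held 3.02%, against 14.8% and 12.1% in replicates 1 and 3. XM_008260881.2, which did not pass the filter, followed XM_002713288.3 at a fixed ratio. In the 6 libraries where the latter held at least 10 counts it had 50.3 to 50.7 times the count of XM_008260881.2.

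The main ATXN7 transcript, XM_017343930.1, held 88.3% ± 4.95 of the counts in the control group and 86.6% ± 2.30 at 3 hours (mean ± SD, n = 3), with overlap. Its level averaged 56.4 ± 10.98 CPM in controls, 37.4 ± 5.76 in TL3h, 40.3 ± 1.42 in TL3d, and 46.6 ± 2.61 in TL14d (mean ± SD, n = 3). It lay below all controls at 3 hours and at 3 days. The gene total was 61.1 ± 11.3 CPM in controls and 42.6 ± 6.86 in TL3h (mean ± SD, n = 3). It overlapped in CPM, while TL3h lay below all controls in the authors' FPKM.

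**Figure D4:**
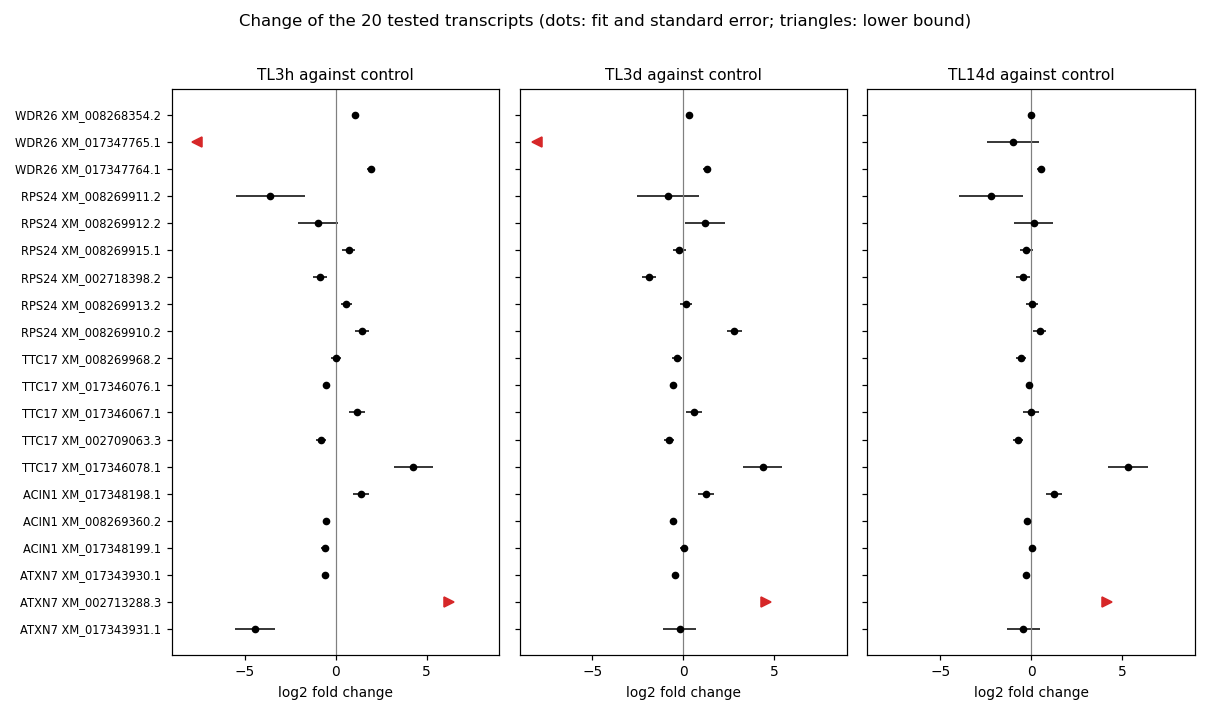
Log2 fold change against the control group of the 20 tested transcripts in TL3h, TL3d, and TL14d; dots with bars are the edgeR fit and its standard error, and triangles are lower bounds where a group was at the level of a 0 count. At 3 hours WDR26, TTC17, ACIN1, and ATXN7 have transcripts on either side of 0. The main forms of RPS24 spread wider at 3 days, from -1.91 to 2.80, than they do at the other times.

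The 5 genes differed in how the total moved beside the shares. WDR26 was the 1 gene whose total was higher at 3 hours, at 344 ± 41.2 CPM against 169 ± 17.6 CPM in the control group (mean ± SD, n = 3), a log2 fold change of 1.02 ± 0.14 (standard error), with no overlap. It was 200 ± 4.13 CPM at 3 days and 166 ± 18.8 CPM at 14 days (mean ± SD, n = 3). The log2 fold change of the total at 3 hours was -0.03 ± 0.22 for RPS24, -0.37 ± 0.12 for TTC17, -0.24 ± 0.13 for ACIN1, and -0.52 ± 0.16 for ATXN7 (standard errors). In this TMM-scaled CPM the TTC17 libraries lay below all controls, and those of RPS24, ACIN1, and ATXN7 overlapped them. In the authors' FPKM the TL3h libraries of RPS24, ACIN1, and ATXN7 also lay below all controls, while those of WDR26 stayed above them. The FPKM means of RPS24, ACIN1, and ATXN7 were 279, 18.4, and 3.995 in TL3h against 396, 30.2, and 7.96 in controls.

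**Figure D5:**
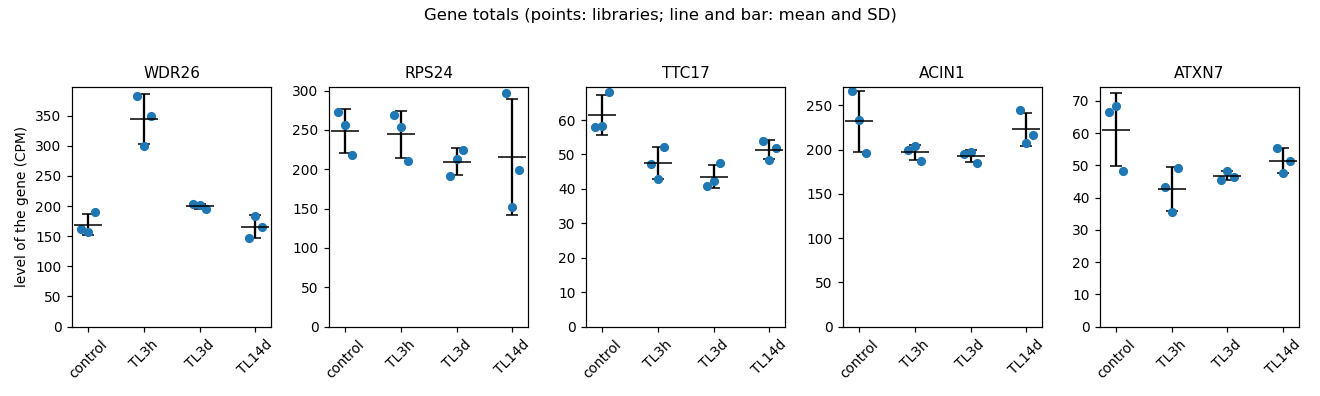
Level of each gene in CPM from the gene table, with each library as a point and the mean and SD of 3 libraries as a line and bar; each axis starts at 0. WDR26 stands at 344 CPM on average at 3 hours against 169 CPM in the control group, and the TTC17 libraries of operated eyes are below the controls at all 3 times.

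Set beside the other genes, the shift of RPS24 was the widest of the 5 at 3 hours and 3 days. For each of 5117 genes with shares in every group, the transcript with the largest change of mean share was taken. At 3 hours that change was 12.8 percentage points for WDR26, 25.5 for RPS24, 13.7 for TTC17, 12.8 for ACIN1, and 12.3 for ATXN7, against a median of 5.66 over all genes. Smaller changes were found in 75.9%, 92.1%, 77.8%, 76.1%, and 75.0% of genes. At 3 days the change in RPS24 was 39.5 points, above that of 98.1% of genes, where the median was 4.48. The changes in WDR26, TTC17, and ACIN1 were then above those of 82.6%, 81.1%, and 84.7% of genes. That in ATXN7, 4.90 points, was above 52.9%. At 14 days, where the median was 3.43, the change in TTC17 was 16.4 points, above that of 90.7% of genes. That in RPS24 was 9.66 points, above that of 81.0% of genes. The changes in ACIN1 and WDR26 were above those of 79.75% and 67.5% of genes. That in ATXN7, 2.55 points, was under the median and above 40.5%. The 14 day changes in TTC17 and RPS24 depended on single libraries. The share of TTC17 XM_002709063.3 changed by -9.42 points without TL14d replicate 1 and by -17.15 points without control replicate 2, where that of RPS24 XM_002718398.2 changed by -11.65 and -4.97 points.

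TL14d replicate 2 resembled the TL3d libraries in WDR26 XM_017347765.1, at 0 CPM, and in ATXN7 XM_002713288.3 it held 3.73 CPM, under the TL3h libraries (4.24 to 7.54 CPM) and TL3d replicate 2 (4.51 CPM) and above the other libraries. In ACIN1 XM_017348198.1 it was at 10.9 CPM, under the lowest control. TL14d replicate 1 was highest in TTC17 XM_017346078.1. The summed level of 6 neutrophil markers was 3.09, 2037, and 144 CPM in TL14d replicates 1, 2, and 3, and the part of such differences in the transcript shares was not tested. Over the whole transcript table, TL14d replicate 1 also stood apart, since 426 transcripts were called at 14 days without it.

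Levels of cell type markers also differed between the groups. The 6 neutrophil markers found of 7 summed to 3.44 to 71.7 CPM in controls, 895 to 2375 in TL3h, and 237 to 599.5 in TL3d. Macrophage markers, 5 of 6, lay between 63.6 and 571 CPM in controls, between 488 and 731 in TL3h, and between 1161 and 1907 in TL3d. The 6 fibroblast markers summed to 12161 to 76288 CPM in controls, 105027 to 125588 in TL3h, and 1328 to 64685 in TL3d. The 4 endothelial markers summed to 17.4 to 243 CPM in controls, 596 to 1187 in TL3h, and 272 to 524 in TL3d. In TL14d the macrophage, fibroblast, and endothelial markers summed to 83.9 to 352, 11014 to 57032, and 56.6 to 263 CPM. The 8 epithelial markers include KRT5, PAX6, and CDH1 and mark the labelled tissue. They summed to 7230 to 11514 CPM in controls (median 9613), 6236 to 10209 in TL3h, 7834 to 18889 in TL3d (median 17910), and 10566 to 14418 in TL14d. KRT13, KRT19, KRT14, MUC16, and the goblet cell genes MUC5AC, TFF1, and TFF3 were not found by name in the table. The 5 T cell markers summed to 6.54 to 22.01 CPM over the 12 libraries and the 3 adipocyte markers found to 17.5 to 142 CPM. The 4 Schwann cell markers summed to 23.8 to 122 CPM in controls (median 29.9), 117 to 182 in TL3h (median 127.7), 10.6 to 50.5 in TL3d, and 18.9 to 33.2 in TL14d. The 2 goblet cell markers found summed to 59.5 to 226.5 CPM in controls (median 84.5), 140.1 to 678 in TL3h (median 475), 162 to 253.5 in TL3d, and 43.9 to 326 in TL14d. The 4 skeletal muscle markers found summed to 271 CPM in control replicate 2 and 299.6 CPM in TL3d replicate 3, and to at most 6.79 CPM in the others. No marker in the table was at 0 in all libraries. The part of these cell types in the transcript shares was not tested.

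The transcripts whose shares ran most like those of the 5 genes over the 12 libraries were sought among 5035 transcripts of other genes whose mean share differed by at least 10 percentage points between groups. For RPS24 XM_002718398.2 these were a transcript of PTPRC, the leukocyte phosphatase CD45, with a Pearson r of 0.932, and one of ST7 with 0.917. The share of the PTPRC transcript averaged 49.6% in controls, 36.5% in TL3h, 18.1% in TL3d, and 46.3% in TL14d. For WDR26 XM_017347765.1 they were transcripts of ZNF711 (r = 0.916), a zinc finger protein, and PCF11 (0.911), a factor that ends transcription. ATXN7 XM_002713288.3 ran with a transcript of LOC100341136 (0.966) and one of the tumor suppressor APC (0.918). ACIN1 XM_017348198.1 ran with AMHR2 (0.939) and VWA9 (0.830), and TTC17 XM_002709063.3 with ZFAND4 (0.859) and PPM1K (0.804). These values describe likeness over the same 12 libraries, all transcripts share those libraries and their depth, and the highest of 5035 values is given.

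Partners of the 5 genes were followed in the gene table, where 23.2% of 14835 genes were called higher and 22.2% lower at 3 hours, and 10.6% higher and 7% lower at 3 days. With library size alone 12.7% were called higher and 38.2% lower at 3 hours, and the median log2 fold change over all genes was -0.47, so values of a list with that scaling stand beside these. The 3 day counts over all genes, 1569 higher and 1039 lower, fell to 265 to 369 higher and 61 to 151 lower without control replicate 1 or 2 or TL3d replicate 1 or 2, and were 2170 and 1608 without TL14d replicate 1 and 2402 and 2069 with the DESeq2 test. Of the complex of ACIN1 and the exon junction complex on which it works, 6 of 7 tested genes were called higher at 3 hours and 0 lower. MAGOH, a core protein of the exon junction complex, rose from 19.6 ± 1.09 to 48.2 ± 5.45 CPM (mean ± SD, n = 3), a log2 fold change of 1.30 ± 0.14 (standard error, edgeR adjusted p = 9.81e-05). Its partner RBM8A rose by 1.09 ± 0.13 (edgeR adjusted p = 0.000167) and RNPS1, which joins ACIN1 in the ASAP complex, by 1.02 ± 0.12 (edgeR adjusted p = 0.000154). The median log2 fold change of the list was 0.9955 against 0.02 over all genes. It was 0.49 with library size alone, against -0.47 over all genes, where 4 genes were called higher and 1 lower. At 3 days RNPS1 was still higher and PNN, the partner in the PSAP complex, was lower, with log2 fold changes of 0.50 ± 0.12 and -0.475 ± 0.11 (standard errors, edgeR adjusted p = 0.0229 and 0.0222). They were called in 12 and 13 of 17 alternative settings.

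The SAGA complex of ATXN7 split in direction. Of 16 tested genes 5 were called higher and 9 lower at 3 hours, with a median log2 fold change of -0.50. With library size alone 2 were called higher and 10 lower, with a median of -0.998 against -0.47 over all genes. ATXN7L1, a paralog of ATXN7, fell from 34.7 ± 12.1 to 6.38 ± 0.635 CPM (mean ± SD, n = 3), a log2 fold change of -2.44 ± 0.36 (standard error, edgeR adjusted p = 0.000472). SUPT3H and SGF29, core and acetyltransferase module subunits, had log2 fold changes of -2.09 ± 0.27 and -1.32 ± 0.40 (edgeR adjusted p = 0.000241 and 0.021). At 3 days 0 were called higher and 4 lower, among them SGF29 (-1.38 ± 0.40, adjusted p = 0.0413), the acetyltransferase KAT2B (-0.73 ± 0.21, adjusted p = 0.0383), and TADA1 (-0.59 ± 0.17, adjusted p = 0.0405). At 3 days the counts without 1 library ranged from 0 to 5 lower, and SGF29, KAT2B, and TADA1 were called in 10, 12, and 8 of 17 alternative settings. SGF29 was not called at 3 hours in 3 of 17 alternative settings. Over all 17, by edgeR or DESeq2, its adjusted p ranged from 0.00195 to 0.0678.

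Of the CTLH complex of WDR26, 2 of 8 tested genes were called higher and 1 lower at 3 hours. RMND5B, one of its ligase subunits, fell from 35.3 ± 5.37 to 14.7 ± 1.47 CPM (mean ± SD, n = 3), a log2 fold change of -1.26 ± 0.18 (standard error, edgeR adjusted p = 0.000436). YPEL5 and ARMC8 had log2 fold changes of 0.92 ± 0.23 and 0.58 ± 0.14 (edgeR adjusted p = 0.00924 and 0.00657). With library size alone, where the median log2 fold change was -0.37 against -0.47 over all genes, 0 genes of the list were called higher and 4 lower.

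Of the small ribosomal subunit genes beside RPS24, 1 of 22 tested was called higher at 3 hours and 0 lower. RPS6 rose from 735 ± 36.2 to 1045 ± 40.9 CPM (mean ± SD, n = 3), a log2 fold change of 0.51 ± 0.13 (standard error, edgeR adjusted p = 0.00883). Leaving out single libraries gave 1 to 4 genes called higher, with 4 when TL14d replicate 1 was left out. With library size alone 0 were called, RPS6 was at 0.01, and the median log2 fold change of the list was -0.26 against -0.47 over all genes, while with TMM it was 0.25 against 0.02. At 3 days 0 of the 22 were called, 1 with an unadjusted p-value under 0.05 and 1 called by DESeq2.

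Of 31 tested splicing regulators, 17 were called higher and 5 lower at 3 hours, and 1 higher and 7 lower at 3 days. ESRP2 and ESRP1, which direct epithelial splicing patterns, fell from 149 ± 46.2 to 36.4 ± 12.9 CPM and from 147 ± 45.7 to 45.6 ± 17.3 CPM (mean ± SD, n = 3). Their log2 fold changes were -2.03 ± 0.40 and -1.69 ± 0.35 (standard errors, edgeR adjusted p = 0.00236 and 0.00314), while RBFOX2, which acts in muscle, nerve, and mesenchymal cells, had -1.31 ± 0.18 (adjusted p = 0.000308). At 3 days PTBP3, a repressor of exons, rose from 113 ± 7.07 to 246 ± 67.4 CPM (mean ± SD, n = 3), with 1.12 ± 0.23 (edgeR adjusted p = 0.0164). The kinases CLK4 and CLK1, which phosphorylate SR proteins, had log2 fold changes of -0.86 ± 0.23 and -0.82 ± 0.18 at 3 days (edgeR adjusted p = 0.032 and 0.0179). PTBP3, CLK4, and CLK1 were each called in 13 of 17 alternative settings. At 3 hours 7 were called higher and 11 lower with library size alone, with a median log2 fold change of -0.05 against -0.47 over all genes, while with TMM it was 0.46 against 0.02. Leaving out single libraries gave 14 to 18 higher at 3 hours and 0 to 9 lower at 3 days. With all 12 libraries no partner gene of any list was called at 14 days by edgeR, where 0 to 2 genes of a list had an unadjusted p-value under 0.05, and by DESeq2 0 were called. Without TL14d replicate 1, 2 SAGA genes and 2 splicing regulators were called lower at 14 days.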

How the data were processed

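Conjunctival RNA was made into stranded poly(A) libraries, and per the labels the reads were aligned with STAR 2.6.0c to OryCun2.0. The authors deposited estimated counts, which need not be whole, and FPKM values per gene and per transcript; the quantification method is not given in the sources used here beyond the name GeneData Profiler. Of the member counts 96.2% were fractions. Estimated counts were rounded, filtered (filterByExpr, minimum count 10, minimum total 15), and fitted over all 12 libraries with edgeR 4.0.16 (TMM, quasi-likelihood test, R 4.3.3, limma 3.58.1), with Benjamini-Hochberg adjustment over all features and a threshold of 0.05. DESeq2 1.42.0, other scalings, no filter, a replicate block, and leaving out each library were alternatives. Shares use unrounded counts. Scripts were tested on simulated data, and no library pair was a copy. Totals per library ranged from 27111348 to 38591425 in the gene table.

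The members and lists were chosen with earlier results of these data known. Named were all member transcripts and, per partner list, the up to 3 called genes with the largest absolute log2 fold change at 3 hours; those at 3 days and the alternatives for lists were added after seeing the data. The p-value of a member was given, as a description, only where it lies nearest the threshold. MicroShunt libraries were not analysed here. One gene of the ribosomal list is not reported here.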

Additional observations from a re-analysis of the deposited data

Results flagged for a closer look

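For 2 minor transcripts every TL3h library lay on 1 side of the control mean and every library of a later group on the other. The mean of RPS24 XM_008269915.1 in TL3d minus that in TL3h was -1.713 CPM, and TL14d minus TL3h was -1.783 CPM, around a control mean of 2.18 CPM. For ACIN1 XM_017348199.1 the same differences were 9.696 and 9.983 CPM, around a control mean of 26.3 CPM. These differences were not tested, and the control libraries overlapped the TL3h libraries for both transcripts.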

How the results depend on the processing

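Counts of calls depended on the libraries and the test. Leaving out 1 library gave 4903 (without control replicate 1) to 8045 (without TL14d replicate 1) transcripts called at 3 hours and 24 to 83 genes with opposite calls. At 3 days it gave 0 (without control replicate 1 or 2 or TL3d replicate 2) to 2920 (without TL14d replicate 1) and 0 to 15, and at 14 days 0 to 426. Between TL14d and TL3d, where 32 transcripts, 27 shares, and 332 genes were called, it gave 0 to 116, 3 to 32, and 0 to 584. The DESeq2 test called 128 genes with opposite transcripts at 3 hours and 46 at 3 days, 4840 transcripts at 3 days and 475 at 14 days, and 1880 transcripts and 1850 genes between TL14d and TL3d. Same-numbered libraries correlated at -0.0781 to 0.247 in 18 pairs, 4 of them over 0.1. Differently numbered libraries correlated at -0.266 to 0.195 in 36 pairs, 4 of them over 0.1. The ranges overlapped, and the numbers were not taken to pair the libraries. With a replicate block 11 shares between TL14d and TL3d, 7290 transcripts at 3 hours, and 1042 at 3 days were called. Of 935 alternative log2 fold changes of members, 906 moved by at most the standard error, 29 moved more, and 0 of the called ones reversed. The share change of ATXN7 XM_002713288.3 went from 3.32 to 0.431 percentage points at 3 days without TL3d replicate 2 and from 2.55 to 0.0556 at 14 days without TL14d replicate 2, and that of WDR26 XM_017347765.1 at 14 days from -6.04 to -2.68 without TL14d replicate 2. Causes were not tested. Depth limits transcripts near 3 counts per library, where fitted folds depend on the prior count.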
